A study of Mus musculus with 20 samples.

Results

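Gene expression in the gonadal fat pad was compared between mice deficient in PKCε, protein kinase C epsilon (gene symbol Prkce), and wild-type (WT) mice. All 10 fat libraries of the series entered the comparison, out of 20 libraries in all, and 14707 of the 48440 genes in the count table had enough counts to be tested. The deficient mice are labelled AdEpsKO and are referred to as KO. The sources used here do not expand that label, and they do not state in which cells or tissues Prkce was removed or which part of the gene is missing. KO and WT mice shared the C57BL/6 background, a high fat diet of 1 week and a fast of 6 h before the tissue was taken. Each group held 5 mice, with 1 fat library per mouse (named here by genotype and number, KO 1 to KO 5 and WT 1 to WT 5). The other 10 libraries of the series, from liver, are used here only where the genotype difference in fat is set against that in liver. Polyadenylated RNA was sequenced with a stranded kit, and total expected counts ran from 12880933 to 17276907 per fat library. Levels are given as CPM, read counts brought to a common library size after TMM scaling, and differences as KO to WT ratios or log2 differences from edgeR's quasi-likelihood fit.

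PKCε is a serine/threonine kinase that is activated by diacylglycerol and does not need calcium. In liver and muscle, diacylglycerol that builds up when fat is oversupplied draws PKCε to membranes, where it has been tied to weaker insulin receptor signalling. The gonadal fat pad is a visceral depot, made up of lipid-filled adipocytes with a stroma of fibroblast-like progenitors, vessels, macrophages, mast cells and lymphocytes. Adipocytes store triglyceride, release fatty acids by lipolysis and secrete adipokines such as leptin, adiponectin and adipsin.

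Adipocyte transcripts were abundant in all 10 libraries: Fabp4, the fatty acid binding protein of adipocytes, ran from 8341 to 15250 CPM. All 16 mature adipocyte markers reached 1 CPM, and their summed level ran from 26310 to 39390 CPM in KO and from 31620 to 48760 CPM in WT. Xist ran from 860.5 to 1645 CPM in all 10 libraries. Of 16 epididymis and testis markers, 11 had 0 counts in every fat library. Several libraries held transcripts of other tissues. KO 2 held bladder-type epithelium, with Upk3a, a urothelial plaque protein, at 381.6 CPM against at most 0.888 CPM elsewhere, and a summed level of 15 bladder markers of 2845 CPM against 21.2 to 45.6 CPM. The summed level of 13 smooth muscle and pericyte markers was also highest in KO 2, at 9424 CPM against 1152 to 4309 CPM. Skeletal muscle actin Acta1 reached 228.6 CPM in KO 2 and 175.2 CPM in WT 2. Serum albumin, Alb, a hepatocyte transcript, reached 469.6 CPM in WT 4 and 415.6 CPM in KO 3, against 12.9 to 74.1 CPM in the other libraries. WT 5 held epithelial transcripts, with Wfdc2 at 24.9 CPM and Epcam at 15.7 CPM, and KO 2 held more of both, at 97.3 and 20.8 CPM. Other markers of uterus and oviduct epithelium set WT 5 apart from KO 2. Ltf, Sprr2f and Pax8 were at 11.49, 5.84 and 3.02 CPM in WT 5 and at 0.136, 0 and 0 CPM in KO 2. Macrophage content also varied, with Cd68 at 201.4 CPM in KO 3, 162.7 CPM in KO 4 and 246.6 CPM in WT 3, and 15.3 to 51.1 CPM in the remaining libraries. In bulk tissue, fewer cells of a type and less RNA per cell cannot be told apart. The first principal component of the tested genes held 30.1% of the variance and set WT 3 and KO 3 apart, and the second held 23.6% and set KO 2 apart.

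**Figure D1:**
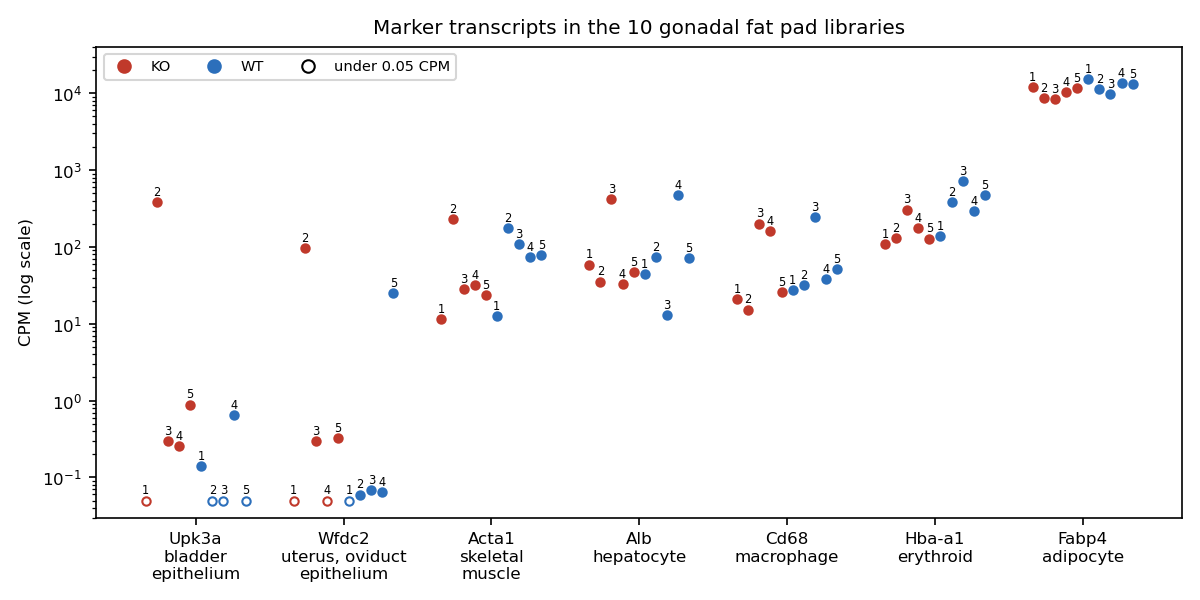
Levels in CPM (log axis) of 7 marker transcripts in the 10 fat pad libraries, with each point 1 library and its number beside it, KO in red and WT in blue; open points lie under 0.05 CPM. Upk3a stands out in KO 2, Wfdc2 in KO 2 and WT 5, Alb in KO 3 and WT 4, and Cd68 in KO 3, KO 4 and WT 3, while the adipocyte transcript Fabp4 runs from 8341 to 15250 CPM.

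The targeted gene was examined first; library values are given here and below in the order of mouse number, 1 to 5. Prkce (ENSMUSG00000045038, chromosome 17, 86167785 to 86657919, plus strand, GRCm38) lay lower in the KO libraries, at a ratio of 0.615 (95% interval 0.451 to 0.84), and its highest KO library fell just short of its lowest WT library. Levels in the KO libraries were 34.6, 35.1, 22.3, 34.7 and 28.7 CPM for mice 1 to 5, and those of WT were 51.3, 62.3, 35.2, 67.1 and 36.8 CPM. KO 1, KO 2 and KO 4 lay just under WT 3, so the groups were separated by a narrow gap, and KO 3 was the lowest library. An exact permutation test (two-sided, on log2 CPM, 252 assignments) gave p = 0.00794, the smallest possible with 5 against 5 libraries. Paired by mouse number, KO was lower in 5 of 5 pairs and the exact p was 0.0625, the smallest that 5 pairs allow. With the groups separate, any pairing gives this result, so it is no second test. In the test across all genes the adjusted p was 0.671 by edgeR. A transcript that lacks part of the gene would still be counted, so the KO level does not give the level of intact message.

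The other 11 isoforms of the protein kinase C and D families were measured beside it, since several of them bind the same lipid. Of the 12 isoforms, 10 lay higher and 2 lower in KO; 1, Prkce, was lower at an unadjusted p under 0.05, against 3.72% of all genes, and had separate groups, against 0.68%, and the median log2 difference was 0.21, or 0.087 without KO 2. Set per kilobase of annotated exons, the atypical isoform Prkci, which does not respond to diacylglycerol, had the highest level, with 15.4 CPM per kb in KO and 13.5 in WT. Prkd1 (12.2 and 11.3), Prkcd (10.1 and 8.64), Prkd2 (8.08 and 8.67) and Prkd3 (7.5 and 7.03) followed on the same per-length scale. Prkce came next with 4.28 CPM per kb in KO and 6.96 in WT, close to Prkd3 in WT and to Prkch (4.04 and 3.89) in KO. Prkcq, the isoform of T cells and muscle, was the lowest, at 0.353 and 0.284 CPM per kb.

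Among the conventional isoforms, which need calcium as well as diacylglycerol, Prkca had 34.6, 47.4, 24.1, 22.4 and 28.4 CPM in KO mice 1 to 5 and 26, 29.8, 18.8, 26.5 and 21.3 CPM in WT mice 1 to 5. KO 2 and KO 1 were the highest of the 10, and the other 3 KO libraries lay within the WT range; the ratio was 1.28 (95% interval 0.931 to 1.76). Prkcb ran from 3.47 to 27.3 CPM in KO and from 3.92 to 9.8 CPM in WT, and its highest value belonged to KO 2. Prkcd, a calcium-independent isoform abundant in macrophages, ran from 37.2 to 87.3 CPM in KO and from 32.2 to 92.4 CPM in WT. Its 3 highest libraries, WT 3, KO 3 and KO 4, were the 3 with the most Cd68, and the part of macrophage content in the values of Prkcd was not tested. Prkch, closest in sequence to Prkce, had a ratio of 1.04 (95% interval 0.826 to 1.3), Prkd1 one of 1.08 (95% interval 0.803 to 1.45) and Prkd3 one of 1.07 (95% interval 0.903 to 1.26), and Prkd2, at 0.932 (95% interval 0.777 to 1.12), lay lower. Levels of Prkcz ran from 1.37 to 11.5 CPM in KO, and the highest belonged to KO 2. The sign of the log2 difference was negative for Prkch without WT 4 (-0.05), for Prkcz without KO 2 (-0.25) and for Prkd1 without WT 3 (-0.04).

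**Figure D2:**
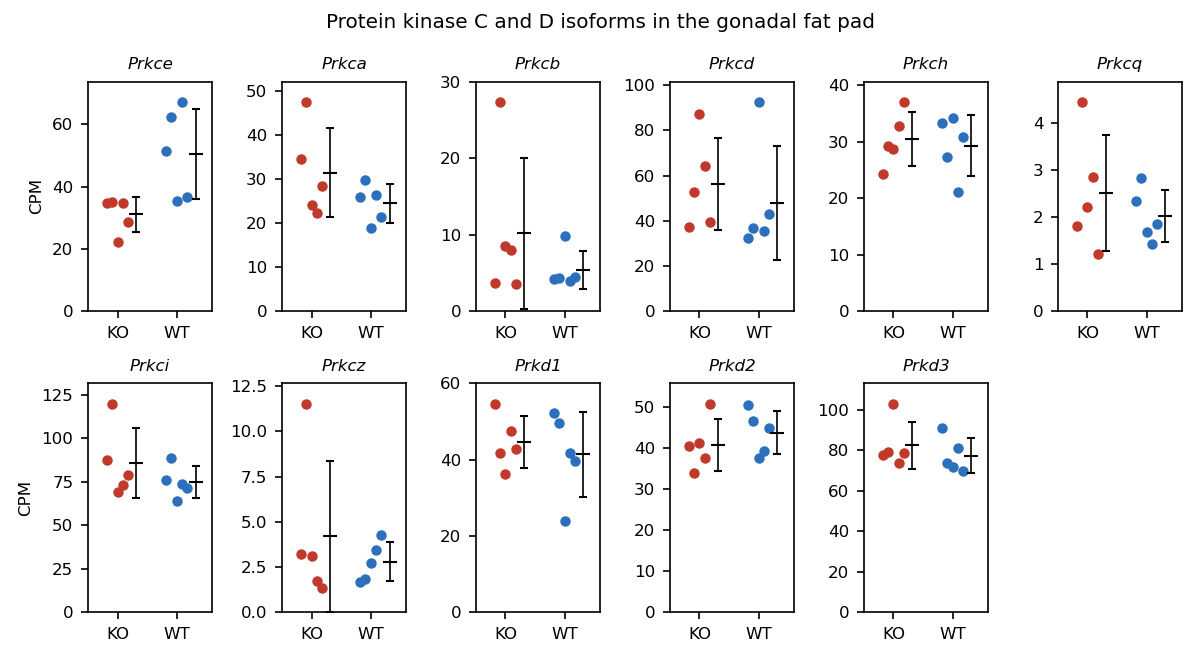
CPM of 11 protein kinase C and D isoforms in each fat library (points; KO red, WT blue, in the order of mouse number), with mean and SD of 5 in black; each panel has its own linear axis from 0. Prkce is the isoform whose KO and WT points do not overlap, with 35.1 CPM in the highest KO library and 35.2 CPM in the lowest WT library.

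Proteins that share or consume the lipid signal were examined next. Marcks, a membrane-bound actin regulator that protein kinase C phosphorylates, lay higher in KO, at 1.61 (95% interval 1.19 to 2.16) of WT. Its KO libraries held 141, 168, 275, 219 and 256 CPM and its WT libraries 151, 156, 109.8, 137 and 105 CPM. KO 2 to KO 5 exceeded every WT library, and KO 1 lay within the WT range. In a list of 12 that joins Marcks and other protein kinase C substrates and anchors with proteins that bind diacylglycerol, 8 lay higher and 4 lower, with 1 (Marcks) higher at an unadjusted p under 0.05, against 3.62% of all genes. Of 7 diacylglycerol kinases, which convert diacylglycerol to phosphatidic acid, 4 lay higher and 3 lower. Only Dgkh reached an unadjusted p under 0.05, at 1.33 (95% interval 1.01 to 1.75) and with low levels, 3.61 to 7.83 CPM. Inositol phosphates arise beside diacylglycerol when phospholipase C cuts its substrate. Among 22 enzymes that act on them, 13 lay higher and 9 lower, with a median log2 difference of 0.05 (-0.03 without KO 2). Itpk1 (ENSMUSG00000057963, chromosome 12, 102568582 to 102704930, minus strand, GRCm38), which phosphorylates inositol phosphates on the way to the highly phosphorylated forms, had the smallest p of all genes tested, unadjusted p = 8.07e-05 and adjusted p = 0.671 by edgeR. The KO libraries held 49, 58.5, 48.5, 54.8 and 53 CPM, and the WT libraries 40.2, 38.9, 40.7, 38.8 and 38 CPM, a ratio of 1.34 (95% interval 1.21 to 1.49). Every KO library exceeded every WT library. Ppip5k2, a kinase of inositol pyrophosphates, lay at 1.17 (95% interval 1 to 1.36) and its groups overlapped.

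Across all genes, no transcript passed the test. Of 14707 genes, edgeR called 0 (0.0%; adjusted p threshold 0.05). At an unadjusted p under 0.05 there were 532 genes with KO higher (3.62%) and 547 with KO lower (3.72%), and without WT 5 these counts were 328 and 337. The KO libraries were all above the highest WT library for 87 genes (0.592%) and all below the lowest for 100 (0.68%). The median log2 difference was 0.001, and the central 90% of genes lay between -0.44 and 0.48. Limma-voom called 0 genes. DESeq2 called 13 (adjusted p from 0.000361 to 0.041), of which 6 lay higher in KO (Itpk1, Clock, Rcor1, Gtf2ird1, Slc39a10 and Cdkn1a) and 7 lower (Tspan4, Ccdc80, St3gal4, Isg20, Polr3gl, Acsm5 and Penk). The p-values measure the spread between these libraries, 1 per mouse.

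Of the separated genes, 152 had a mean of at least 10 CPM, 68 with KO above and 84 with KO below. The 15 most negative and the 15 most positive of these are described in turn; they were chosen for that separation, so their values are a description. Among the 15 lower genes were products that adipose tissue secretes. Penk, the precursor of enkephalin peptides, had the lowest ratio, 0.519 (95% interval 0.375 to 0.717). Its levels were 23.9, 20.9, 17.2, 13.6 and 15 CPM in KO mice 1 to 5 and 30.6, 30.6, 24.8, 37.4 and 51.3 CPM in WT mice 1 to 5. The highest KO library, KO 1, lay just under the lowest WT library, WT 3, and WT 5 was the highest. Ccdc80 (ENSMUSG00000022665, chromosome 16, 45093402 to 45128077, plus strand, GRCm38), a secreted matrix-associated protein of adipocytes and their progenitors, held 1066, 631, 729, 889 and 837 CPM (KO) against 1335, 1081, 1734, 1625 and 1520 CPM (WT), a ratio of 0.569 (95% interval 0.435 to 0.745). KO 1 and WT 2 were closest to each other, and KO 2, the library with bladder transcripts, was the lowest. Cfd, which encodes adipsin, the complement factor D of adipocytes, had levels of 3702, 2801, 4373, 3571 and 2722 CPM in KO and 5303, 4724, 4710, 7598 and 5908 CPM in WT, a ratio of 0.608 (95% interval 0.449 to 0.823). WT 4 was the highest library and KO 5 the lowest. Smoc1, a secreted calcium-binding matrix protein, ran from 125.5 to 246 CPM in KO and from 249 to 369.9 CPM in WT.

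Enzymes and transporters made up a further set of the 15. Slc27a1, the fatty acid transport protein FATP1, which also activates fatty acids to acyl-CoA, held 487, 438, 436, 498 and 332 CPM in KO mice 1 to 5 and 562, 663, 677, 1169 and 603 CPM in WT mice 1 to 5, a ratio of 0.596 (95% interval 0.434 to 0.819). WT 4 stood far above the other WT libraries, all of which still lay above the highest KO library, KO 4. Cyp2e1, a cytochrome P450 that oxidizes ethanol and ketone bodies, held 2017, 1855, 1567, 1396 and 2062 CPM (KO) against 2650, 2392, 2782, 4507 and 2755 CPM (WT), a ratio of 0.59 (95% interval 0.434 to 0.802). Cyp2e1 is also abundant in hepatocytes, and its highest library was WT 4, 1 of the 2 with the most Alb; the part of hepatocyte transcripts in its values was not tested. Slc1a3, a glutamate and aspartate transporter, ran from 119 to 226.5 CPM in KO and from 227.8 to 462.9 CPM in WT. Uap1, which makes the sugar nucleotide UDP-N-acetylglucosamine, ran from 71.4 to 91.7 CPM in KO and from 106.6 to 178 CPM in WT. St3gal4, a sialyltransferase, ran from 39.1 to 54 CPM in KO and from 63 to 84.9 CPM in WT. Etfbkmt, a mitochondrial lysine methyltransferase, ran from 16.8 to 32.3 CPM in KO, with KO 5 far below the others, and from 37 to 44.9 CPM in WT.

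Genes of immune cells and receptors completed the lower set. Cd163, the haemoglobin scavenger receptor of resident macrophages, held 68.9, 80, 43.9, 80.2 and 57.9 CPM (KO) against 82.2, 110.1, 99.9, 118 and 109 CPM (WT), a ratio of 0.637 (95% interval 0.494 to 0.821). KO 3, high in Cd68, had the lowest Cd163 level of all 10 libraries. Casp4, an inflammatory caspase, ran from 7.18 to 9.86 CPM in KO and from 10 to 22 CPM in WT. Isg20, an interferon-induced exonuclease, held 12.7, 12.2, 12.2, 12.6 and 13.6 CPM (KO) against 17.3, 15.6, 20.9, 17.1 and 21.7 CPM (WT). The KO libraries lay close together, below all WT libraries, at 0.682 (95% interval 0.579 to 0.804). Ntrk2, the receptor of brain-derived neurotrophic factor, ran from 77.5 CPM in KO 2 to 178.3 CPM in KO and from 195.1 to 236.2 CPM in WT. The gene with the ratio nearest to 1 among these 15 was Ntrk2, at 0.686, and Prkce itself was the eighth of them.

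The 15 higher genes had smaller differences, with ratios from 1.31 to 1.83. Pttg1, securin, an inhibitor of sister chromatid separation before anaphase, had the largest, 1.83 (95% interval 1.25 to 2.68). It held 27.4, 25.1, 25.5, 26.4 and 29.3 CPM in KO mice 1 to 5 and 17.1, 15.5, 18.8, 15.9 and 5.78 CPM in WT mice 1 to 5. The KO libraries were close together, and WT 5 lay far below the other WT libraries. Several of these genes act on messenger RNA or transcription. Cpeb4 and Ptbp3 bind messenger RNA, and ran from 76.1 to 96.8 CPM and from 150.3 to 188.5 CPM in KO, against 45.4 to 75.6 CPM and 102.5 to 149.6 CPM in WT. Pura, a single-stranded nucleic acid binding protein, had a ratio of 1.46 (95% interval 1.19 to 1.78). Zfp871, a zinc finger protein, had one of 1.48 (95% interval 1.18 to 1.86). Gtf2ird1, a transcription factor of the TFII-I family, held 22, 21.1, 23.5, 24.9 and 21.9 CPM (KO) against 16.3, 17.2, 18.8, 16.1 and 15.7 CPM (WT), a ratio of 1.35 (95% interval 1.19 to 1.53). The KO levels lay close together and clear of the highest WT library, WT 3. Rfxap, a subunit of the RFX complex that drives class II antigen presentation genes, ran from 15.9 to 20.8 CPM in KO and from 10.1 to 15.2 CPM in WT. Of 10 class II genes tested, 9 lay lower in KO and 0 reached an unadjusted p under 0.05; their median log2 difference was -0.28, and -0.01 without KO 2 and WT 5.

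Protein traffic and modification were the other roles. Chm, the Rab escort protein, and Pggt1b, a subunit of the type I enzyme that attaches geranylgeranyl groups, take part in prenylation, and their ratios were 1.31 (95% interval 1.12 to 1.53) and 1.33 (95% interval 1.07 to 1.64). Tmed7, a cargo receptor of early secretory vesicles, ran from 119.7 to 133 CPM in KO and from 71.6 to 114.9 CPM in WT, with WT 3 and WT 5 well below the others. Cdk17, a cyclin-dependent kinase relative, and Senp5, a SUMO protease, had ratios of 1.36 (95% interval 1.15 to 1.61) and 1.32 (95% interval 1.14 to 1.54). Tmem160 ran from 17.2 to 22.6 CPM in KO and from 12.2 to 17.2 CPM in WT, with the closest libraries, KO 3 and WT 4, next to each other. For Senp5 the groups almost met as well, with KO 2 at 19.4 CPM and WT 2 at 19.3 CPM.

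**Figure D3:**
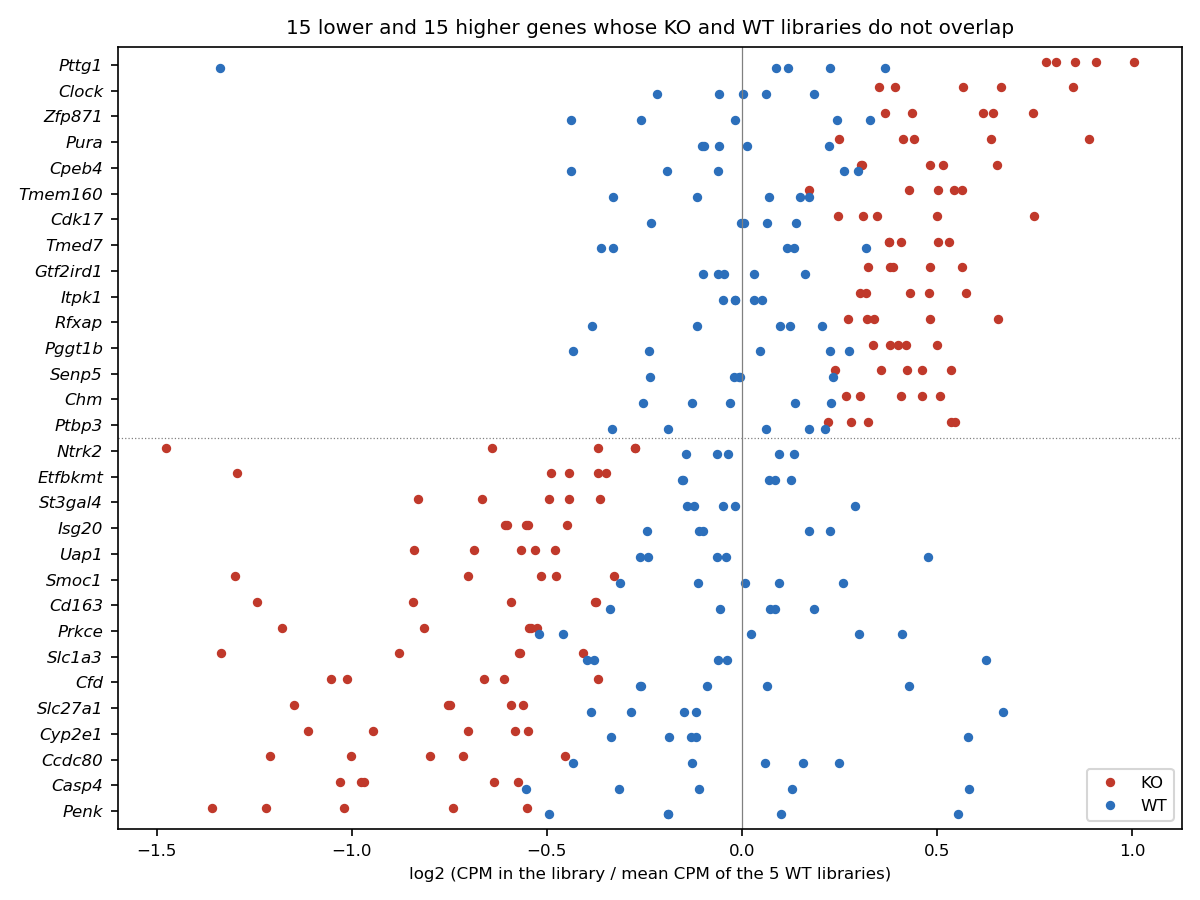
Level in each library relative to the mean of the 5 WT libraries (log2 scale; KO red, WT blue) for the 15 lower and 15 higher genes among those with a mean of at least 10 CPM whose groups do not overlap. The genes were picked for this separation, so the plot shows its width. For Prkce, Tmem160, Senp5, Ptbp3, Cpeb4, Slc1a3 and others the nearest KO and WT points almost touch. A visible gap remains for genes such as Isg20, Etfbkmt and Itpk1.

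Further genes that DESeq2 called lay outside these 30, and Rcor1, Polr3gl, Slc39a10 and Tspan4 among them had separate groups. Rcor1, a corepressor of the CoREST complex, ran from 38.3 to 43.1 CPM in KO and from 28.8 to 34.2 CPM in WT. Polr3gl, a subunit of RNA polymerase III, ran from 25.1 to 32.6 CPM in KO and from 36.1 to 43.8 CPM in WT. Rcor1 and Polr3gl were named after their values were seen. Slc39a10, a zinc importer, held 33.5, 40.9, 43.1, 37.8 and 41.2 CPM (KO) against 29.6, 32.5, 29.7, 31.5 and 28.8 CPM (WT), a ratio of 1.29 (95% interval 1.14 to 1.46). Of 20 zinc transporters and metallothioneins, 9 lay higher and 11 lower. Mt2, a metallothionein that binds zinc, ran from 6.85 to 188.8 CPM in WT, with the top value in WT 4, and from 7.24 to 22.3 CPM in KO. WT 4 and KO 3 both held hepatocyte transcripts, and KO 3 had Mt2 at 8.02 CPM. The part of hepatocyte transcripts in the values of Mt2 was not tested. Tspan4, a tetraspanin of migrating cells, held 74, 57, 72.4, 68.2 and 61.7 CPM (KO) against 86.5, 90.2, 88.2, 94.2 and 91.4 CPM (WT), a ratio of 0.74 (95% interval 0.653 to 0.838). The WT libraries lay close together and above all KO libraries. Tspan18, a tetraspanin of endothelium, lay higher, at 1.25 (95% interval 1.07 to 1.46), with KO 1 among the WT libraries, and of 23 tetraspanins 16 lay higher and 7 lower.

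The circadian clock list had Clock on one side and its outputs Ciart and Dbp on the other. CLOCK pairs with BMAL1, encoded by Arntl, and the pair binds E-boxes to drive genes such as Ciart, Dbp and the Per and Cry repressors. Clock (ENSMUSG00000029238, chromosome 5, 76209868 to 76304792, minus strand, GRCm38) held 86.2, 80.5, 69.4, 71.4 and 97.9 CPM (KO) against 54.5, 61.8, 52.2, 56.7 and 46.7 CPM (WT). Every KO library lay above every WT library, at a ratio of 1.49 (95% interval 1.26 to 1.76). Ciart, a repressor of CLOCK and BMAL1, held 5.8, 7.15, 4.42, 3.88 and 3.07 CPM (KO) against 8.4, 11, 6.18, 9.96 and 7.29 CPM (WT), a ratio of 0.569 (95% interval 0.392 to 0.827). WT 3 was the only WT library inside the KO range. Dbp, a transcription factor that is a direct output of the clock, held 151, 150.3, 125, 128 and 106 CPM (KO) against 168, 222, 128, 201 and 161 CPM (WT), a ratio of 0.751 (95% interval 0.593 to 0.95), and again only WT 3 lay inside the KO range. Arntl was low, from 1.96 to 6.4 CPM in KO and from 1.56 to 5.77 CPM in WT, with KO 3 and WT 3 highest. Of 25 clock genes, 17 lay lower and 8 higher; 1 was higher and 2 were lower at an unadjusted p under 0.05, against 3.62% and 3.72% of all genes. The median log2 difference was -0.12, or -0.02 without WT 2.

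The promoter of Ciart is printed because it carries the E-box that the CLOCK and BMAL1 pair binds, while the transcript lay opposite to Clock. It spans chr3:95882179-95882478 (minus strand, RefSeq, GRCm38.p6), from 250 bases before to 50 after the gene start, and capitals mark CACGTG, which reads the same on both strands.
Ciart: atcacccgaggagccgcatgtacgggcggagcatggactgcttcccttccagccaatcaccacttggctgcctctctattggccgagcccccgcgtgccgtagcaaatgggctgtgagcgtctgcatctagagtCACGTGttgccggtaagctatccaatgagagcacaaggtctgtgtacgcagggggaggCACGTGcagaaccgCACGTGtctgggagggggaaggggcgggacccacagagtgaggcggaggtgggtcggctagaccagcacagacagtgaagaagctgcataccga
The motif occurred 3 times here. It was found in the promoters of 5 of 20 clock genes matched in the RefSeq table (Bhlhe41, Ciart, Cry1, Per1 and Tef) and in 8.09% of 27025 promoters of that length. A match is a description of letters and not evidence of binding.

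The list of adipokines and secreted factors leaned to one side. Like the other lists, this one was chosen with earlier results of these data known, so its counts are a description. Of 34 tested, 28 lay lower and 6 higher in KO; 10 were lower and 0 higher at an unadjusted p under 0.05, against 3.72% lower among all genes, and 5 (Cfd, Ccdc80, Adig, Rarres2 and Penk) had every KO library below every WT library, against 0.68% of all genes. The median log2 difference was -0.30, against 0.001 for all genes, and -0.19 without KO 2 and WT 5. Beside Penk, Ccdc80 and Cfd, the list held Adig, adipogenin, which is a membrane protein of adipocytes and not a secreted factor. Adig was at 118, 89.8, 122, 113 and 102 CPM (KO) against 159, 123, 144, 161 and 152 CPM (WT), a ratio of 0.736 (95% interval 0.626 to 0.866). The groups were separate, with KO 3 just under WT 2. Angptl2, an angiopoietin-like factor linked to adipose inflammation, ran from 206.6 to 276.3 CPM in KO and from 272.4 to 388.6 CPM in WT. The best known adipokines did not separate. Adipoq, adiponectin, held 3115, 1519, 2735, 3393 and 3436 CPM (KO) against 5265, 3248, 2514, 3569 and 4345 CPM (WT), a ratio of 0.75 (95% interval 0.503 to 1.12). KO 2 was far below the other 4 KO libraries, which lay within the WT range. Leptin, Lep, ran from 413.3 to 1607 CPM in KO and from 540.9 to 1173 CPM in WT, at 1.09 (95% interval 0.636 to 1.86), and both its lowest and its highest library were KO; its log2 difference was -0.10 without KO 5.

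Markers of the mature adipocyte leaned the same way, with 13 of 16 lower and a median log2 difference of -0.22 (-0.11 without KO 3 and WT 4). Of these, 3 (Cfd, Pnpla2 and Pck1) lay lower at an unadjusted p under 0.05, against 3.72% of all genes. Cfd stands in both this list and that of adipokines, so the lists are not separate observations. Markers of adipocyte progenitors and fibroblasts lay lower in 14 of 18 cases, 4 of them (Pdgfra, F3, Ly6a and Clec3b) at an unadjusted p under 0.05, against the same 3.72%, with a median of -0.16 (-0.09 without WT 5). Pdgfra, the growth factor receptor that marks progenitors, held 86.8, 69.9, 88.8, 78.1 and 65.1 CPM (KO) against 94.6, 84.5, 119.9, 111 and 109 CPM (WT), a ratio of 0.749 (95% interval 0.624 to 0.898). WT 2 was the only WT library within the KO range. F3, tissue factor, which marks a progenitor subset that restrains adipogenesis, ran from 29.5 to 55.8 CPM in KO and from 51.2 to 58.7 CPM in WT, and Ly6a, encoding Sca-1, had a ratio of 0.737 (95% interval 0.578 to 0.939). Cebpb, an early adipogenic transcription factor that also responds to hormones and inflammation, lay on the other side, at 21.3, 57.6, 49.8, 66.9 and 34.8 CPM (KO) against 7.13, 10.8, 15.4, 35.7 and 11.6 CPM (WT). KO 1 and KO 5 lay below WT 4, the highest WT library, and KO 2, KO 3 and KO 4 lay above it. This gave 2.86 (95% interval 1.45 to 5.62) as the ratio, at adjusted p = 0.671 by edgeR. Of 30 adipogenic transcription factors 18 lay higher and 12 lower, with a median of 0.02.

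Lipid handling was divided by branch. Acyl-CoA synthetases activate fatty acids for storage or oxidation; 8 of 14 lay lower, 3 of them (Acsm5, Slc27a1 and Acsm3) at an unadjusted p under 0.05, against 3.72% of all genes. Acsm5, a mitochondrial medium-chain acyl-CoA synthetase, had the lowest ratio of the list, 0.447 (95% interval 0.298 to 0.67). It held 18.8, 14.4, 11.3, 13.2 and 9.53 CPM (KO) against 25.6, 26.1, 18.2, 49.5 and 31.1 CPM (WT). KO 1 was the only KO library to reach the WT range, whose lowest library was WT 3. In the lipolysis list 20 of 27 lay lower, 3 of them at an unadjusted p under 0.05, against 3.72%, with a median log2 difference of -0.09, which was 0.02 without KO 3 and WT 4. Pnpla2, the adipose triglyceride lipase ATGL, held 2110, 1384, 1428, 1781 and 1516 CPM (KO) against 2245, 2243, 1908, 2743 and 2324 CPM (WT), a ratio of 0.717 (95% interval 0.562 to 0.914). Only KO 1 reached into the WT range. Hcar1 and Hcar2, receptors through which lactate and ketone bodies or niacin restrain lipolysis, had ratios of 0.712 (95% interval 0.542 to 0.934) and 0.715 (95% interval 0.522 to 0.979), so a lipase and receptors that oppose it lay lower together. For Hcar1 the groups were just separate, with 129.3 CPM in the highest KO library and 129.8 CPM in the lowest WT library. Fatty acid oxidation enzymes lay lower in 20 of 28 cases, with 0 at an unadjusted p under 0.05 and a median of -0.07. Of 24 genes of branched-chain amino acid breakdown, 22 lay lower and 2 higher, 2 of them (Bckdha and Bckdk) lower at an unadjusted p under 0.05, near the 3.72% of all genes, with a median of -0.11 (-0.04 without KO 3 and WT 4).

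Triglyceride synthesis enzymes were balanced, with 10 higher and 10 lower of 20 tested. Pck1, which makes the glycerol backbone for re-esterification in fasting fat, held 2119, 1951, 1531, 2637 and 1775 CPM (KO) against 3352, 2181, 2151, 3248 and 2892 CPM (WT), a ratio of 0.724 (95% interval 0.538 to 0.975). Gpam, the mitochondrial enzyme that adds the first acyl chain to glycerol phosphate, ran from 239.5 to 337.7 CPM in KO and from 281.4 to 371.4 CPM in WT. Mogat2, which makes diacylglycerol from monoacylglycerol, lay higher, at 40, 30.9, 7.66, 11.6 and 38 CPM (KO) against 16.8, 16.3, 3.2, 5.78 and 6.89 CPM (WT). KO 1, KO 2 and KO 5 lay above all WT libraries, and KO 3 and KO 4 lay among them; the ratio was 2.61 (95% interval 1.11 to 6.15). Scd2, a stearoyl-CoA desaturase, was at 829.9, 1148, 434, 399.7 and 859 CPM against 539.7, 574, 272, 212 and 315 CPM in WT, a ratio of 1.92 (95% interval 1.1 to 3.35). The same 3 KO libraries were above all WT libraries, with KO 2 the highest. Fasn, fatty acid synthase, ran from 5697 to 12600 CPM in KO and from 2691 to 14100 CPM in WT, with the highest library in WT. The fatty acid synthesis list had 13 of 20 higher and a median of 0.29, but 0.05 without KO 2, 0.12 without WT 3, 0.15 without WT 5 and -0.05 without KO 2 and WT 5.

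Genes of cholesterol synthesis and uptake lay higher in 24 of 27 cases, 5 of them (Hmgcs1, Idi1, Hsd17b7 and Cyp51 among them) at an unadjusted p under 0.05, against 3.62% of all genes, and 1 lay lower at that level. The median log2 difference was 0.32, and it was 0.16 without KO 2 and 0.09 without KO 2 and WT 5. Hmgcs1, the cytosolic synthase that makes HMG-CoA at the start of the mevalonate pathway, held 154, 159, 162, 229.8 and 241 CPM (KO) against 154, 136, 134, 115 and 127 CPM (WT), a ratio of 1.42 (95% interval 1.13 to 1.78). KO 4 and KO 5 were far above all other libraries, and KO 2 and KO 3 lay just above the highest WT library, WT 1, and KO 1 just below it. Idi1, which isomerizes isopentenyl pyrophosphate, held 18.5, 22.6, 14.1, 12.3 and 14.2 CPM (KO) against 11.1, 14.2, 7.64, 9.83 and 6.17 CPM (WT), a ratio of 1.67 (95% interval 1.16 to 2.4). The highest level was in KO 2. Fdft1, squalene synthase, lay on the other side, at 0.787 (95% interval 0.621 to 0.998).

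The Hmgcs1 promoter is shown because it holds TCACCCCAC, a sterol regulatory element to which SREBP factors are known to bind. The stretch is chr13:119690101-119690400 (plus strand, RefSeq, GRCm38.p6), with the element in capitals; both strands were searched.
Hmgcs1: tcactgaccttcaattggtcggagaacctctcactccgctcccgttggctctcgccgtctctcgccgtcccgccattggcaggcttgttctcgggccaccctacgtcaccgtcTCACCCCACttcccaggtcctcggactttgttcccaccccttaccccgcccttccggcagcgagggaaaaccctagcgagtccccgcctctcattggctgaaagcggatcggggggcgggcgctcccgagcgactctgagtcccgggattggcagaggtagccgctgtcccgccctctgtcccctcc
Of 20 cholesterol genes matched in the RefSeq table, only Hmgcs1 held these exact letters, and 0.614% of the 27025 promoters did. Absence of the exact letters says nothing about the other genes.

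In the insulin signalling and glucose uptake list, 23 of 37 lay lower and 14 higher, with a median log2 difference of -0.03. Grb10, an adaptor that restrains the insulin receptor, held 125, 97.6, 118, 129.8 and 118 CPM (KO) against 137, 142, 149.6, 172 and 156 CPM (WT), a ratio of 0.779 (95% interval 0.673 to 0.902). All KO libraries lay below all WT libraries. Slc2a4, the insulin-responsive glucose transporter GLUT4, held 328, 275, 185, 222 and 225 CPM (KO) against 308, 330.0, 144, 286 and 218 CPM (WT), a ratio of 0.961 (95% interval 0.678 to 1.36), so that the interval allows a difference of either sign. Without WT 2 its log2 difference was 0.05. Of 59 genes of endosomes and vesicle traffic, 33 lay higher and 26 lower, with 3 of each sign at an unadjusted p under 0.05, near the 3.62% and 3.72% of all genes, and a median of 0.04. Rab21, a small GTPase of early endosomes, held 36.1, 42, 38.3, 35.8 and 39 CPM (KO) against 30.9, 34.1, 29.7, 35 and 28.9 CPM (WT), a ratio of 1.21 (95% interval 1.07 to 1.36), with KO 4 just above WT 4. Rab13, a GTPase of vesicle docking, and Rab11b, one of recycling endosomes, lay lower, at 0.764 (95% interval 0.612 to 0.953) and 0.907 (95% interval 0.825 to 0.996). Uqcc3, an assembly factor of respiratory complex III, ran from 19.4 to 22.4 CPM in KO and from 23.8 to 31.8 CPM in WT, while 28 of 44 nuclear respiratory chain genes lay lower and their median was -0.02.

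Targets of p53, the transcription factor activated by DNA damage and other stress, lay higher in 21 of 24 cases. Of these, 4 reached an unadjusted p under 0.05, against 3.62% of all genes, and the median log2 difference was 0.18, from 0.14 to 0.25 over all alternatives. Cdkn1a, the cyclin-dependent kinase inhibitor p21, held 70.6, 69.9, 36.6, 46.4 and 63.5 CPM (KO) against 21.9, 30.7, 41.5, 28.4 and 29.3 CPM (WT), a ratio of 1.89 (95% interval 1.37 to 2.61). KO 3 was the only KO library within the WT range, whose top was WT 3. Ccng1, cyclin G1, held 218, 203, 169, 185 and 210.4 CPM (KO) against 163, 178, 136, 157 and 136 CPM (WT), a ratio of 1.28 (95% interval 1.09 to 1.51), with only KO 3 below the highest WT library. Trp53inp1, a stress protein that takes part in autophagy, held 62.9, 64.7, 59.3, 45 and 58.9 CPM (KO) against 40.7, 42.1, 29, 54 and 28.8 CPM (WT), a ratio of 1.49 (95% interval 1.14 to 1.96), with KO 4 overlapping WT 4. The remaining member of the 4, Perp, a desmosome protein of epithelia, held 112.7 CPM in KO 2 and at most 6.96 CPM in the other 9 libraries.

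**Figure D4:**
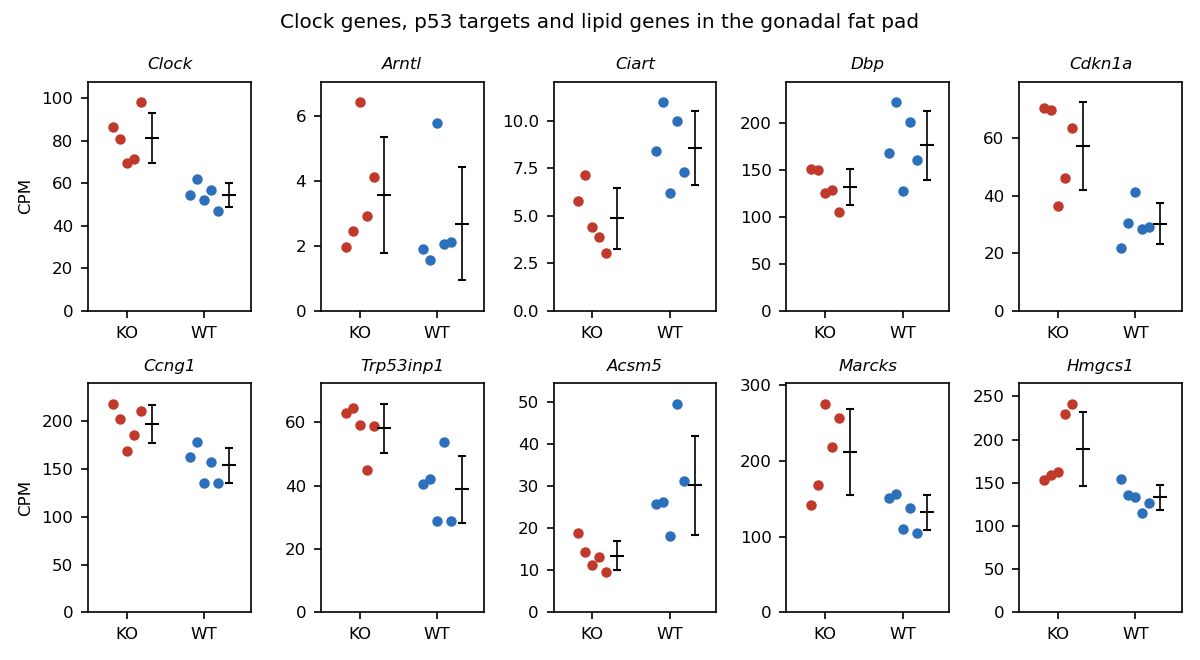
CPM of 10 genes in each fat library (points; KO red, WT blue, in the order of mouse number), with mean and SD of 5 in black and a linear axis from 0 in each panel. Clock separates fully, Ciart and Dbp lie lower in KO with WT 3 inside the KO range, and Cdkn1a, Ccng1 and Trp53inp1 lie higher with 1 KO library each inside the WT range.

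Genes of the unfolded protein response and its neighbour, the amino acid response, lay lower in 19 of 29 cases, 4 of them at an unadjusted p under 0.05, against 3.72% of all genes, with a median log2 difference of -0.15 (-0.06 without WT 3). Xbp1, a transcription factor of the unfolded protein response, held 208, 168, 216, 199.9 and 171 CPM (KO) against 237, 219, 284, 339 and 249 CPM (WT), a ratio of 0.726 (95% interval 0.594 to 0.887), with no overlap. Asns, asparagine synthetase, was next at 0.799 (95% interval 0.693 to 0.922), and Chac1, which degrades glutathione, and Pdia4, a disulfide isomerase, had ratios of 0.679 (95% interval 0.489 to 0.941) and 0.788 (95% interval 0.626 to 0.991). Hspa5, the chaperone BiP that marks this response most directly, ran from 357.4 to 410.3 CPM in KO and from 358.4 to 619.7 CPM in WT, with the top value in WT 3.

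Fibrillar collagens and matrix proteins lay lower in 30 of 34 cases, and 0 reached an unadjusted p under 0.05 in either direction. The median log2 difference was -0.25, and -0.03 without WT 3, the library with the most macrophage transcripts. In the basement membrane list, Lamb1, a laminin chain, held 335, 258, 315, 299 and 314 CPM (KO) against 378, 347, 379, 374 and 398 CPM (WT), a ratio of 0.81 (95% interval 0.705 to 0.932), with no overlap, and the list as a whole had 11 higher and 10 lower. Matrix proteases lay on both sides. Mmp3, stromelysin, was at 0.473 (95% interval 0.259 to 0.863) and low (3.75 to 20.8 CPM), and the membrane-bound Mmp15 was at 1.51 (95% interval 1.04 to 2.19), with its highest level, 51.4 CPM, in KO 2.

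Immune and blood transcripts lay lower in KO in most lists. T and natural killer cell markers were nearly balanced, with 8 lower and 7 higher of 15. Their median log2 difference was -0.15, and 0.01 without KO 2 and WT 5. Of 40 interferon response genes, 37 lay lower and 3 higher; 9 were lower at an unadjusted p under 0.05, against 3.72% of all genes, and 2, Isg20 and Nmi, had all KO libraries below all WT libraries, against 0.68% of all genes. The median log2 difference was -0.30, and -0.18 without KO 2 and WT 5. Nmi, an interferon-induced partner of transcription factors, held 11.2, 12.5, 11.5, 12.9 and 12 CPM (KO) against 21.2, 13.1, 18.1, 16.6 and 18.7 CPM (WT), a ratio of 0.686 (95% interval 0.567 to 0.831). Igtp, an interferon-induced GTPase, ran from 16.2 to 38.9 CPM in KO and from 30.4 to 78.3 CPM in WT, with WT 1 the highest. Ifi27l2a, an abundant interferon-induced transcript, held 645, 454, 741, 847 and 493 CPM (KO) against 1128, 731, 898, 1022 and 1130 CPM (WT), a ratio of 0.648 (95% interval 0.48 to 0.875), with KO 3 and KO 4 inside the WT range. Beside these, the summed level of 18 macrophage markers ran from 907.1 to 3203 CPM in KO and from 1182 to 4405 CPM in WT, with WT 3, KO 3 and KO 4 highest, and its part in the interferon difference was not tested. Of the 18 macrophage markers 12 lay lower and 6 higher, with a median of -0.21, which was 0.11 without WT 3 and -0.70 without KO 3 and WT 4.

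Mast cell markers lay lower in 6 of 8 cases, with a median log2 difference of -0.85 (-0.50 without KO 2 and WT 5). Of these, 4 (Tpsb2, Hdc, Cma1 and Mcpt4) reached an unadjusted p under 0.05, against 3.72% of all genes. Kit and Gata2, the most abundant markers of the list, lay higher. Kit ran from 23 to 26 CPM in KO and from 16.6 to 25.7 CPM in WT, and Gata2 was highest in KO 2, at 44.1 CPM. The summed level of 11 mast cell markers overlapped, from 48.94 to 77.25 CPM in KO and from 56.46 to 84.75 CPM in WT. Levels of the 4 named genes were low. The tryptase Tpsb2 held 4.29, 1.57, 1.99, 2.2 and 2.58 CPM (KO) against 3.46, 4.01, 3.61, 5.65 and 8.07 CPM (WT), a ratio of 0.507 (95% interval 0.308 to 0.835), and the chymase Cma1 ran from 1.16 to 4.97 CPM in KO and from 3.81 to 8.21 CPM in WT. WT 5 was the highest library for both and KO 2 the lowest. B and plasma cell markers lay lower in 7 of 9 cases, 2 of them (Igkc and Jchain) at an unadjusted p under 0.05, against 3.72% of all genes. Their median log2 difference was -0.39, and -0.13 without KO 2 and WT 5. The summed level of 11 such markers overlapped widely, from 134.1 to 702.1 CPM in KO and from 189.1 to 716.3 CPM in WT. Ighm, the most abundant of them, ran from 106.1 to 635.4 CPM in KO and from 142.7 to 532.5 CPM in WT. Igkc, an immunoglobulin light chain, held 39.8, 22.1, 13.8, 23.7 and 27.4 CPM (KO) against 64.9, 28.3, 26.6, 71 and 139 CPM (WT), a ratio of 0.384 (95% interval 0.191 to 0.773). Jchain was at 0.487 (95% interval 0.262 to 0.905). WT 1, WT 4 and WT 5 were the libraries high in Igkc. Erythroid markers lay lower in all 9 tested, 8 of them at an unadjusted p under 0.05, against 3.72% of all genes, with a median of -1.25. Erythroid transcripts share a cell type, so these are not 9 separate observations. Hba-a1, a haemoglobin chain with a near-identical copy whose reads it may share, held 108, 131, 307, 174 and 129 CPM (KO) against 139.9, 389, 726, 290.4 and 479 CPM (WT), a ratio of 0.419 (95% interval 0.22 to 0.799). Alas2, the erythroid enzyme of haem synthesis, held 14.5, 15.2, 45.4, 27.2 and 17.3 CPM (KO) against 16.8, 65.9, 125, 41.2 and 56.8 CPM (WT), a ratio of 0.391 (95% interval 0.183 to 0.837). WT 1 and WT 4 lay within the KO range for both, and WT 3 was the highest of all. The summed level of 10 erythroid markers ran from 403.3 to 1261 CPM in KO and from 524.1 to 3058 CPM in WT, and how much blood each pad held was not tested. All 16 skeletal muscle markers lay lower in KO, with a median of -1.10, and 0 reached an unadjusted p under 0.05; without WT 2, the library with most of them, the median was -0.06.

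**Figure D5:**
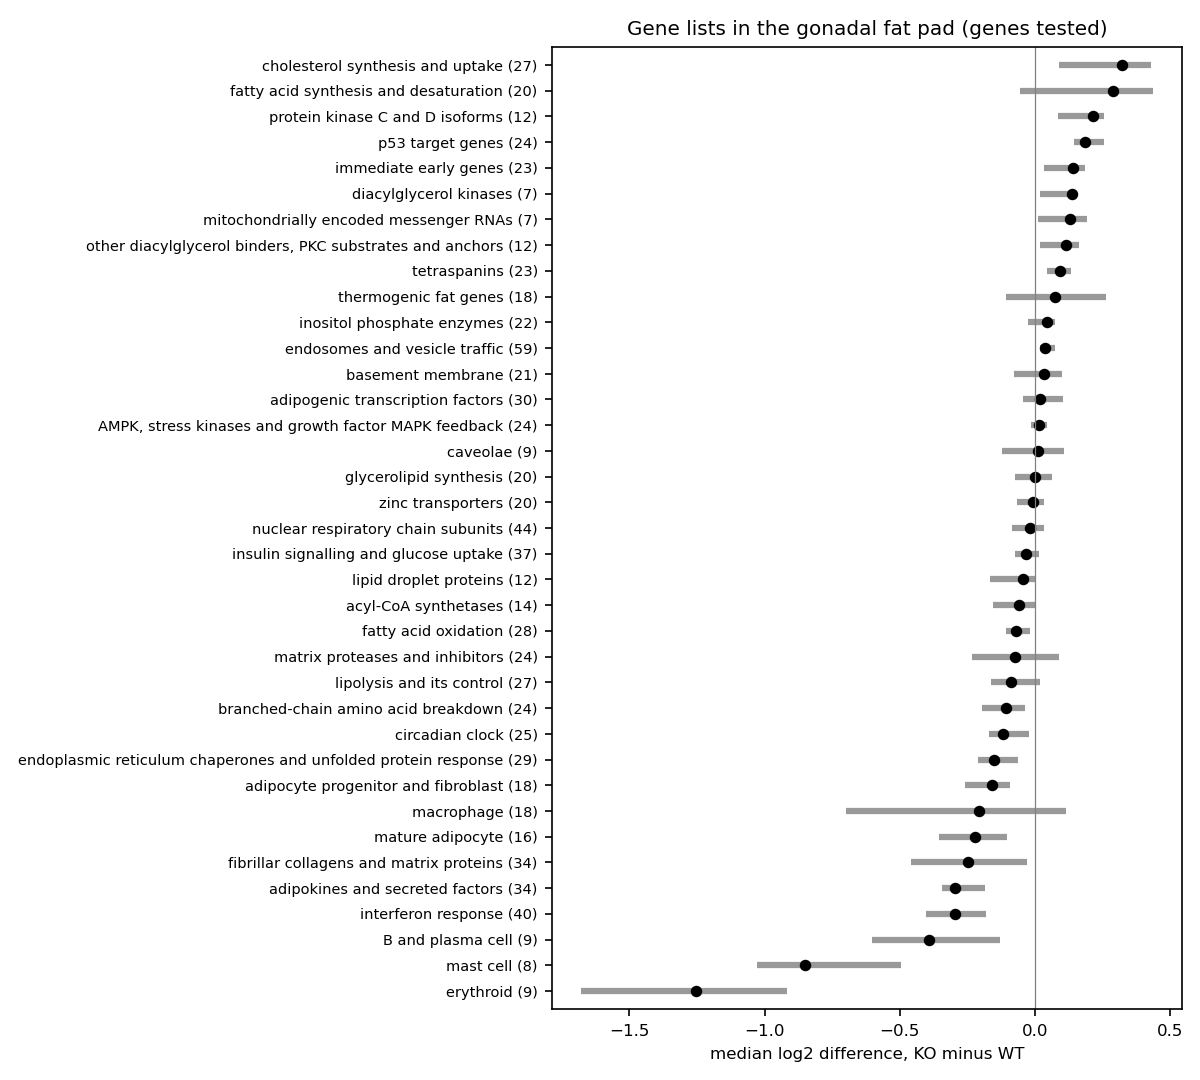
Median log2 difference between KO and WT fat over the tested members of each gene list (black points; number of members in brackets), with the range of that median over other scalings and over the libraries left out in grey. Cholesterol synthesis and p53 target lists keep a positive median and the adipokine, interferon, mast cell and erythroid lists a negative one in every setting plotted. Other lists keep their sign too, such as those of protein kinase C and of the mature adipocyte, while the fatty acid synthesis and macrophage medians cross 0.

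The difference in fat was set against that between KO and WT liver. The test of that difference treated all 20 libraries as independent, although fat and liver libraries share mouse numbers and may come from the same mice. It covered 15652 genes, of which edgeR called 0 (0.0%; smallest adjusted p 0.306), with 907 at an unadjusted p under 0.05. DESeq2 called 2, Cdc40 and Syt11. Some of the genes above had like ratios in liver. Clock had a KO to WT ratio of 1.37 in liver beside 1.49 in fat, Pttg1 1.87 beside 1.83, and Penk 0.526 beside 0.519. Prkce itself had 0.784 beside 0.615. Other ratios differed more, and missed the adjusted test of the difference. Itpk1 had a ratio of 1.02 in liver beside 1.34 in fat (unadjusted p = 0.00276 for the difference, adjusted p = 0.743 by edgeR). Acsm5 had 1.04 in liver beside 0.447 in fat (unadjusted p = 0.000519 for the difference, adjusted p = 0.639 by edgeR), and Cdkn1a 0.695 in liver beside 1.89 in fat (unadjusted p = 0.00841 for the difference, adjusted p = 0.851 by edgeR).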

How the data were processed

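The authors deposited estimated counts (RSEM expected counts) per gene for gonadal fat and liver, 5 libraries per genotype and tissue. Per the submitters' processing notes, reads were trimmed and counted with tools that include Trim Galore (0.2.8), STAR (2.4.0d) and RSEM (1.2.12) on GRCm38, and DESeq2 is listed too. Which annotation release was used, and whether counting took strand into account, is not stated. The expected counts, as deposited by the authors, were rounded to whole numbers. Totals were 12880933 to 17276907 per fat library, and every replicate pair differed by more than sampling noise (chi-square per degree of freedom at least 19.17).

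Genes passed edgeR's filterByExpr (minimum count 10, minimum total 15) over the fat libraries. After TMM scaling, edgeR 4.0.16 (R 4.3.3) tested KO against WT in fat by quasi-likelihood with Benjamini-Hochberg adjustment and no covariate. The comparison with liver was an interaction over all 20 libraries. Log2 CPM had a prior count of 2. Alternatives covered other scalings (RLE, upper quartile) and filters (none, or 1 CPM in 5 libraries), DESeq2 1.42.0, limma 3.58.1 voom with and without quality weights, a fit of all tissues, a replicate block, and omission of each library in turn. Pairs of libraries that held other tissues were left out after the data were seen. The fit was also run on simulated counts with the same dispersion for every gene and no differences in tissue content between libraries. That run checked the code and does not bear on how many genes could be called here.

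Named genes were the protein kinase C isoforms, the 15 lowest and 15 highest ratios among genes averaging 10 CPM or more with separate groups, up to 6 members of each list with the smallest unadjusted p and its best known member, and markers of libraries that stood apart. Gene models named Gm or Rik were counted but not described. Some further genes of the lists are counted but not reported here. Genes and lists were chosen with earlier results of these data known. Positions and exon lengths come from the GRCm38 annotation, and promoters from RefSeq GRCm38.p6.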

Additional observations from a re-analysis of the deposited data

Results flagged for a closer look

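In 11 of 196 groups of 5 libraries examined, 1 library stood apart from the other 4. Its gap to its neighbour was more than 0.71 of the group's whole range, both taken on a log2 scale. The gap shares below are on that scale, printed beside levels in CPM. Chance gives about 1 in 20 groups. Among the WT libraries, WT 3 was high for Prkcb (9.8 CPM against 3.92 to 4.4, gap share 0.875), Prkcd (92.4 against 32.2 to 43, 0.727) and Arntl (5.77 against 1.56 to 2.1, 0.777). WT 4 was high for Cyp2e1 (4507 CPM against 2392 to 2782, gap share 0.762), Slc27a1 (1169 against 562.2 to 677, 0.746) and St3gal4 (84.9 against 63 to 68.6, 0.716). WT 5 was low for Pttg1 (5.78 CPM against 15.5 to 18.8, gap share 0.835). Among the KO libraries, KO 5 was low for Etfbkmt (16.8 CPM against 29.3 to 32.3, gap share 0.85). KO 3 was high for Prkd3 (103 CPM against 73.9 to 79.4, gap share 0.782), KO 2 low for Adipoq (1519 against 2735 to 3436, 0.721) and KO 4 low for Trp53inp1 (45 against 58.9 to 64.7, 0.744).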

How the results depend on the processing

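Of the settings run across all genes, DESeq2 called 13 genes and every other 0; for the difference between fat and liver DESeq2 called 2. With 1 library left out, edgeR called 0 each time, and genes at an unadjusted p under 0.05 numbered 328 (without WT 5) to 703 (without WT 2) with KO higher and 337 (WT 5) to 650 (WT 2) with KO lower. Genes with separate groups numbered 123 (WT 5) to 283 (WT 2) with KO above and 126 (WT 5) to 221 (WT 3) with KO below; fewer libraries separate more easily. Without KO 3 and WT 4 these were 260 and 232, without KO 2 and WT 2 382 and 314, and without KO 2 and WT 5 202 and 203, with 260 and 305 genes at an unadjusted p under 0.05. The labels give no pairing by replicate number, and correlations of same-numbered deviations ran from -0.17 to 0.50, so the numbers were not taken as pairs. Of 5 KO libraries, 3 correlated best with their own number, among them KO 2 and KO 3. KO 2 and WT 2 were both high in skeletal muscle transcripts, and KO 3 and WT 3 in macrophage transcripts. The cause of these matches, pairing included, was not tested. With the replicate block the log2 difference of Prkce was -0.67 (exact permutation p = 0.0625, the smallest 5 pairs allow), and edgeR called 0 genes. That p follows from the separate groups under any pairing. Left-out libraries moved Prkce from -0.79 to -0.56.

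Of 2134 values for 97 genes, 2103 kept direction and side of the threshold, 13 passed it newly and 18 changed sign. With 1 library left out, log2 differences ran from -0.0464 to 0.124 for Prkch, -0.25 to 0.81 for Prkcz, -0.0368 to 0.205 for Prkd1, -0.10 to 0.32 for Lep and -0.208 to 0.048 for Slc2a4. Without KO 3 and WT 4 Prkcd was at -0.0742, Prkch at -0.0275 and Slc2a4 at 0.0693. Without KO 2 and WT 2 Prkcz was at -0.37 and Slc2a4 at 0.0059. Without KO 2 and WT 5 Prkcq was at -0.0106, Prkcz at -0.0383 and Fasn at -0.068. Limma-voom with quality weights gave Prkcz -0.0027. Of 780 list medians 761 moved by less than the SD between libraries of the list's mean log2 CPM, a wide tolerance within which some changed sign, and 19 by more; the cause was not tested.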
